A study of Sus scrofa with 8 samples.

Results

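The adipocyte and lipid storage genes described here are adipokines, lipases, a fatty acid carrier, enzymes of fat synthesis and a lipid droplet protein, measured in left ventricular muscle of pigs after myocardial infarction. The members were ADIPOQ, CFD, LEP, FABP4, LPL, LIPE, PNPLA2, SCD, FASN and CIDEA, and they were taken as every probe set whose only gene symbol in the platform annotation was one of these 10. They gave 18 of the 24123 probe sets on the array. The gene identifiers of all 10 led to the same symbols in the current RefSeq table of the pig.

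The 8 animals were Yorkshire pigs, castrated males under 1 year of age. Muscle was taken at a distance from the infarct, and each animal was measured on 1 Affymetrix porcine array. All animals had an infarct: 3 were untreated, 3 were given a low dose of GGF2, 0.67 mg/kg at each infusion, and 2 a high dose, 2.0 mg/kg, both over 4 weeks. GGF2, glial growth factor 2, is an isoform of neuregulin-1 that acts on heart muscle through ERBB receptors. No animal without an infarct and no vehicle infusion is among the samples. Every difference below is thus one between infarcted animals, either with and without GGF2 or at different doses of it.

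Fat cells store triglyceride in a lipid droplet, make part of its fatty acids with fatty acid synthase and stearoyl-CoA desaturase, and release them again through the lipases PNPLA2 and LIPE. They also secrete hormones, among them adiponectin and leptin. The heart holds fat cells chiefly under the epicardium and around vessels, while its muscle cells live largely on fatty acids taken from blood, which lipoprotein lipase frees from lipoproteins at the capillary wall. Several of these genes are therefore shared between fat cells and other cells of the ventricle.

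Expression is given on the log2 scale as the deposited RMA values, so a difference of 1 is a doubling. Levels below the lower quartile of the arrays, which lay between 3.72 and 3.80, were taken as close to background. The pairwise correlations of the arrays lay between 0.982 and 0.994, and no pair of arrays was identical. The labelled tissue was checked against its markers: all 8 heart muscle genes sought (MYH7, MYL2, MYL3, TNNI3, TNNT2, ACTC1, PLN and RYR2) had means between 10.39 and 14.87. Of 10 further fat cell markers 5 had a probe set, and their means lay between 3.81 and 7.69. PLIN1, PLIN4, CIDEC, AQP7 and THRSP had none with a single symbol and are not analysed here. Fat cell markers were thus few and, apart from GPD1, low on these arrays, and the members are called fat and lipid storage genes by their rule, with no claim on the cells they came from. The 3' minus 5' difference of actin control probes, which grows as RNA is degraded, was 2.50 to 3.32 in untreated animals, 2.68 to 3.39 at the low dose and 2.89 to 2.95 at the high dose, so the groups overlapped.

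Among the adipokines, none passed a test in any comparison. Adiponectin (ADIPOQ), a hormone made almost only by fat cells, measured 3.33, 4.86 and 3.01 in untreated animals, 3.57, 3.71 and 3.05 at the low dose and 3.38 and 3.49 at the high dose. Only untreated replicate 2 lay above the lower quartile of its array, so the other 7 values hold no order and give no size of change. In bulk muscle, fewer cells of a type and less RNA per cell cannot be told apart.

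Complement factor D (CFD, adipsin), a serine protease of the alternative complement pathway that fat cells and macrophages secrete, was above background on all 8 arrays. It measured 8.53, 9.48 and 8.25 in untreated animals, 9.27, 9.98 and 8.41 at the low dose and 9.39 and 8.70 at the high dose. The untreated and the low-dose animals spread over much of the whole range of 1.73, and the 2 high-dose animals lay within it, so the groups overlapped. At the low dose CFD differed from untreated by 0.47 ± 0.43 (SE), with a 95% interval of -0.53 to 1.46 (limma adjusted p = 0.998). At the high dose it differed from untreated by 0.29 ± 0.49, with an interval of -0.82 to 1.40 (limma adjusted p = 0.941).

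Leptin (LEP), the satiety hormone, had 4 probe sets. The brightest measured 6.07, 6.26 and 6.16 in untreated animals, 6.21, 6.14 and 6.15 at the low dose and 6.13 and 6.08 at the high dose, a whole range of 0.19. Its interval was the narrowest among the adipokines: -0.31 to 0.19 for high dose against untreated. On this probe set both high-dose values lay just under all 3 low-dose values, with a difference of -0.07 ± 0.11 (limma adjusted p = 0.888). A dimmer probe set, at 2.74 to 3.19, lay below the lower quartile on all arrays. The other two are control probe sets of the array; they ranged from 5.81 to 6.26 and from 5.34 to 5.65 over the 8 animals and were not tested.

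**Figure D1:**
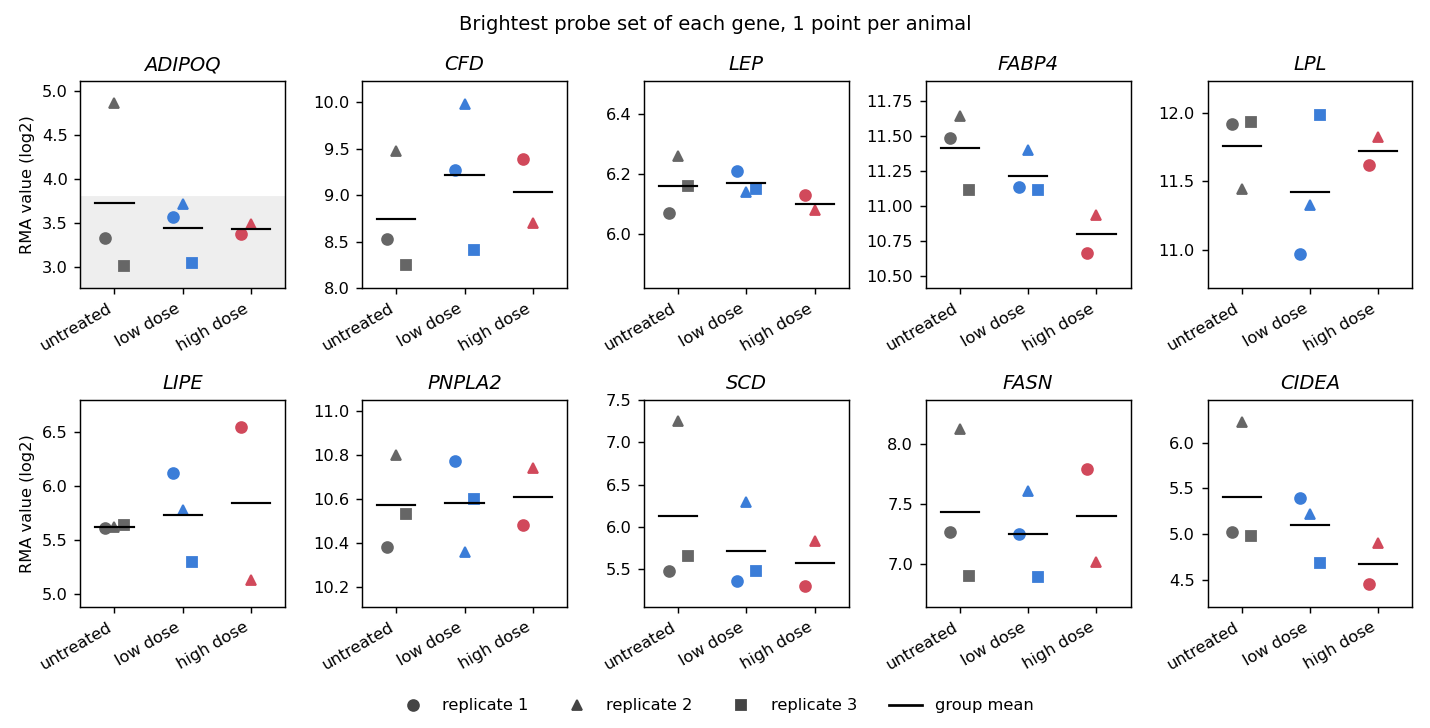
RMA values (log2, vertical axis, scaled for each gene) of the brightest probe set of each of the 10 genes in untreated, low-dose and high-dose animals. Each point is 1 animal, its shape the replicate, and the bar is the group mean; the grey area in the ADIPOQ panel lies below the highest lower quartile of the arrays, 3.80. Untreated replicate 2 is the highest animal for 7 of the 10 genes, and the high-dose animals lie below the others for FABP4.

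Fatty acid binding protein 4 (FABP4) was lower in high-dose animals, without passing the adjustment over all probe sets. This small carrier of fatty acids in the cytosol is abundant in fat cells and is also made by macrophages and by capillary endothelium, that of the heart included. FABP4 measured 10.66 and 10.93 in high-dose animals, against 11.48, 11.64 and 11.11 in untreated animals. Both high-dose values lay below all untreated ones, and below the low-dose values of 11.13, 11.40 and 11.11 as well. With so few animals this is common: 12% of all probe sets were lower without overlap against untreated, and 13% against the low dose.

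The means of FABP4 were 10.80 ± 0.19 at the high dose (SD, n = 2) and 11.41 ± 0.27 in untreated animals (n = 3). The difference was -0.61 ± 0.18 (SE), with a 95% interval of -1.03 to -0.20, so that FABP4 was 1.53 times lower. It did not pass the adjustment over all probe sets (limma adjusted p = 0.422, unadjusted p = 0.00898) and ranked 508th by p of 23999. The unadjusted p was under 0.05 in 16 of 17 alternative fits, with differences between -0.76 and -0.48. The exception was limma's fit without high-dose replicate 1, where the unadjusted p was 0.0782 and the adjusted p 1.

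At the low dose FABP4 averaged 11.21 ± 0.16 (SD, n = 3) and overlapped the untreated animals, with a difference of -0.20 ± 0.16 (SE; limma adjusted p = 0.998). High dose differed from low dose by -0.42 ± 0.18 (limma adjusted p = 0.488, unadjusted p = 0.0495), and the unadjusted p was under 0.05 in 9 of 17 alternative fits. It was 0.266 without high-dose replicate 1, with a difference of -0.28. Since both dose comparisons with untreated share the same 3 animals, they are not separate observations. The 2 high-dose animals carry consecutive tag numbers, and whatever they may share through that cannot be told apart from the dose.

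Most markers of macrophages, which also make FABP4, were lower at the high dose, while those of endothelium were mixed. Of 7 macrophage genes measured, 6 were lower in high-dose than in untreated animals, 6 without overlap and 5 with an unadjusted p under 0.05. Over all 6765 genes with a symbol, 879 were lower without overlap and 4.95% were lower with such a p. Their mean centred level was -0.48 and -0.55 in high-dose animals, against -0.08 to 0.38 in untreated ones. The mannose receptor MRC1 differed by -1.17 and the lysosomal protein LAPTM5 by -0.80 (limma adjusted p = 0.383 and 0.269).

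Endothelial genes were lower at the high dose than in untreated animals in 6 of 8, against 3125 of all 6765 genes. Without overlap 3 were lower and 2 higher, GPIHBP1 at 0.15 among the latter, against 879 and 1085 of all genes. Their mean centred level was -0.24 and -0.01 in high-dose animals, against 0.06 to 0.11 in untreated ones. The junction protein PECAM1 differed by -0.57 and the angiopoietin receptor TEK by -0.53 (limma adjusted p = 0.511 and 0.566). The 5 other fat cell markers had levels of -0.12 and 0.06 at the high dose, against -0.05 to 0.02 in untreated animals. That level averages genes that moved apart, RBP4 at 0.34 and PPARG at -0.34, and all but GPD1 were low on these arrays. Fibroblast genes were lower in 4 of 4, with levels of -1 and -0.53 in high-dose animals, against 0.09 to 0.48 in untreated ones, while those of heart muscle were 0.06 and 0.01, against -0.10 to 0.08. The 5 epicardial and mesothelial genes measured had levels of 0.10 and -0.17 in high-dose animals, against -0.54 to -0.15 in untreated ones. Their levels were highest at the low dose, at 0.20 to 0.42. KRT8 differed most from untreated, by 0.57 at the high and 2.21 at the low dose. The others differed by 0.13 to 0.24 at the high dose. The part of any of these in the FABP4 difference was not tested.

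**Figure D2:**
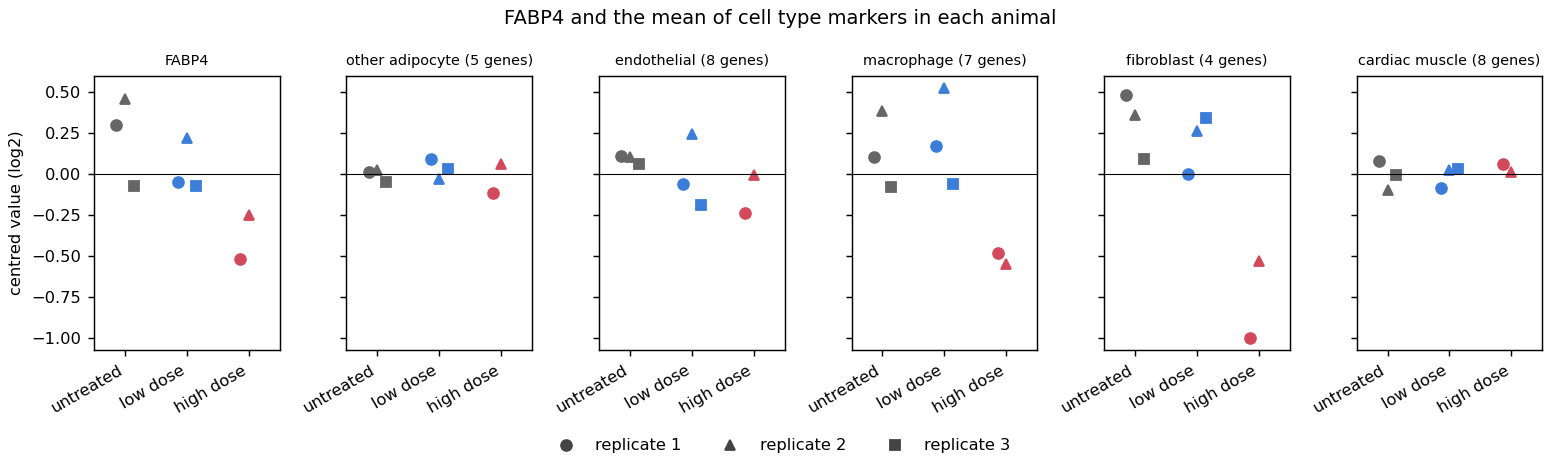
FABP4 and the mean of 5 lists of cell type markers in each animal (log2, each gene centred on its mean over the 8 arrays), for untreated, low-dose and high-dose animals; each point is 1 animal. FABP4, macrophage and fibroblast values are lowest in both high-dose animals. The means of the other fat cell markers, all but GPD1 low on these arrays, and of heart muscle genes lie between -0.12 and 0.09.

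Lipoprotein lipase (LPL), which heart muscle cells and fat cells make and which frees fatty acids from circulating lipoproteins, had 2 probe sets that gave different results. The brighter one measured 11.92, 11.44 and 11.93 in untreated animals, 10.97, 11.33 and 11.98 at the low dose and 11.62 and 11.82 at the high dose. The less bright one measured 9.20, 8.68 and 8.77 in untreated animals, 8.10, 8.44 and 8.89 at the low dose and 9.31 and 9.27 at the high dose. On both, low-dose replicate 1 was the lowest animal. On the less bright one alone, the high-dose animals lay above all others. Of all probe sets, 14.7% were higher at the high dose without overlap against untreated, and 13.2% against the low dose. Low-dose replicate 1 also had the largest 3' minus 5' differences of actin (3.39) and GAPDH (1.85) control probes, but the smallest of the IRP control (-2.04). The part of RNA quality in its LPL values was not tested.

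For high against low dose the less bright LPL probe set differed by 0.81 ± 0.24 (SE), with a 95% interval of 0.27 to 1.36 and 1.76 times higher at the high dose. This missed the adjusted threshold (limma adjusted p = 0.312, unadjusted p = 0.00808), and the unadjusted p stayed under 0.05 in all 17 alternative fits, with differences of 0.63 to 1.02. The brighter probe set differed by 0.29 ± 0.28 in the same comparison, with an interval of -0.35 to 0.93 (limma adjusted p = 0.781). Its difference was 0.07 without low-dose replicate 1.

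Against untreated, the 2 LPL probe sets pointed apart at the high dose, with 0.41 ± 0.24 on the less bright (limma adjusted p = 0.726) and -0.05 ± 0.28 on the brighter one (limma adjusted p = 0.989). At the low dose they were at -0.40 ± 0.21 and -0.34 ± 0.25, both with limma adjusted p = 0.998. Of LPL's partners, the capillary anchor GPIHBP1 measured 5.11, 5.39 and 5.03 at the low dose, against 4.98, 4.87 and 4.89 in untreated animals, all low-dose values above the untreated ones, a difference of 0.26. The LPL inhibitor ANGPTL4 differed at the low dose by 1.16, with low-dose animals between 7.22 and 9.87 and untreated ones between 6.85 and 8.14 (limma adjusted p = 0.998 for both). APOC2 went the other way, below the lower quartile on all arrays. It measured 2.96, 3.04 and 3.01 at the low dose, against 3.21, 3.18 and 3.17 in untreated animals (-0.19, limma adjusted p = 0.998). Over all 6765 genes, 297 were higher and 280 lower at the low dose than in untreated animals without overlap.

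The intracellular lipases did not separate the groups. Adipose triglyceride lipase (PNPLA2) takes the first fatty acid off triglyceride and is active in heart muscle as well as in fat. Its brighter probe set measured 10.38, 10.80 and 10.53 in untreated animals, 10.77, 10.36 and 10.60 at the low dose and 10.48 and 10.74 at the high dose. The groups overlapped fully, and the 95% intervals were -0.36 to 0.44 for high dose and -0.35 to 0.37 for low dose, each against untreated. A dim second probe set, with a mean of 4.16, was higher in both high-dose than in all low-dose animals, by 0.27 ± 0.12 (limma adjusted p = 0.51).

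Hormone-sensitive lipase (LIPE), which acts on diglyceride in the next step, measured 5.61, 5.62 and 5.64 in untreated animals, 6.12, 5.78 and 5.29 at the low dose and 6.55 and 5.13 at the high dose. The 2 high-dose animals were the highest and the lowest of all 8, while the 3 untreated ones lay within 0.03 of each other. The mean difference of 0.22 ± 0.38 between high dose and untreated (limma adjusted p = 0.946) therefore stands for neither animal. It was -0.49 without high-dose replicate 1 and 0.93 without high-dose replicate 2.

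Both fat synthesis members were highest in the same untreated animal on their brightest probe set. Stearoyl-CoA desaturase (SCD), which puts the double bond into saturated fatty acids, measured 5.48, 7.26 and 5.65 in untreated animals, 5.36, 6.29 and 5.48 at the low dose and 5.30 and 5.83 at the high dose. Untreated replicate 2 stood 0.97 above the next animal, low-dose replicate 2, and 3.43 times above the median of the other 7. The difference of high dose from untreated was -0.56 ± 0.51 (limma adjusted p = 0.85), and 0.00 without untreated replicate 2.

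Fatty acid synthase (FASN), which builds palmitate from malonyl-CoA, measured 7.26, 8.12 and 6.90 in untreated animals, 7.25, 7.61 and 6.89 at the low dose and 7.79 and 7.01 at the high dose on its brightest probe set. Untreated replicate 2 was again the highest and the groups overlapped. High dose differed from untreated by -0.03 ± 0.38, with an interval of -0.89 to 0.83 (limma adjusted p = 0.993). Untreated replicate 2 was highest on 1 of the 3 dimmer FASN probe sets. These, with means of 5.42, 5.02 and 4.24, differed by 0.07, -0.02 and 0.04, and the spread of the untreated animals on them was 0.06 to 0.14 (SD), against 0.62 on the brightest.

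CIDEA, a protein of the lipid droplet surface that helps droplets fuse and is known in mice as a marker of brown fat, measured 4.46 and 4.91 in high-dose animals, against 5.02, 6.22 and 4.98 in untreated animals. Both high-dose values lay below the untreated ones, the nearer of them narrowly, as was so for 12% of all probe sets. The low-dose values of 5.40, 5.22 and 4.69 overlapped with both groups. The difference of high dose from untreated was -0.72 ± 0.38 (SE), with an interval of -1.59 to 0.15 (limma adjusted p = 0.699). Without untreated replicate 2 it was -0.32.

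**Figure D3:**
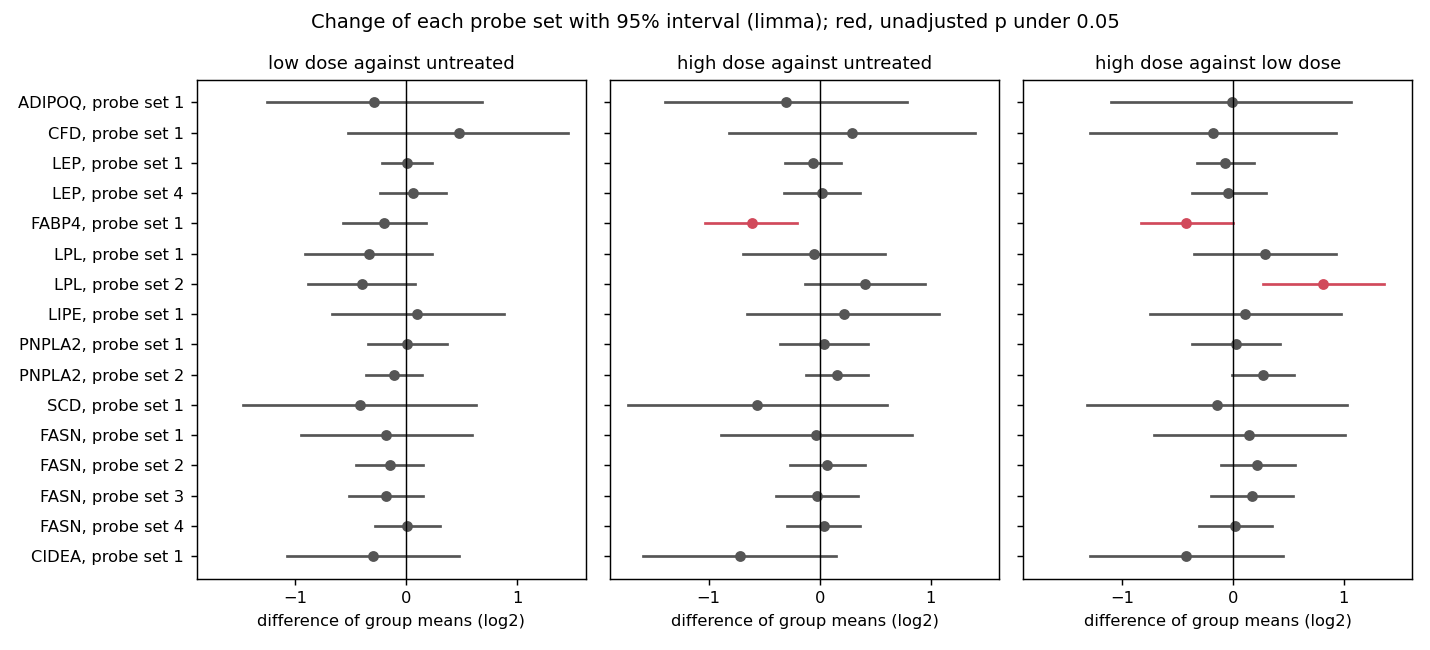
Difference of group means (log2, horizontal axis) with its 95% interval from limma for each of the 16 tested probe sets, numbered by brightness within a gene, in 3 comparisons. Red marks an unadjusted p under 0.05, which holds for FABP4 (-0.61 and -0.42 at the high dose) and the less bright LPL probe set (0.81); each other interval spans 0.

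Counted together, the fat genes stood close to the background of the array. A total of 16 member probe sets were tested. For high dose against untreated 0 of them passed at a limma adjusted p under 0.05 (background 0% of all 23999 probe sets), and FABP4 was the 1 with an unadjusted p under 0.05, where the background was 7.97% in both directions and 4.36% for lower. Non-overlapping groups were seen for 3 of the 16, against a background of 26.6%: FABP4 and CIDEA were lower (background 12%), and the less bright LPL probe set was higher (background 14.7%). Of the 16, 8 were higher and 8 lower, with a median change of 0.00 against 0.01 over all probe sets.

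For low dose against untreated 0 of 16 passed (background 0%), 0 had an unadjusted p under 0.05 (background 4.5%) and 0 had groups that did not overlap (background 9.1%). The median change was -0.17, against 0.01 over all probe sets, with 10 of 16 lower. For high against low dose 0 passed (background 0.025%), and 2 had an unadjusted p under 0.05 (background 10.2%), LPL higher (background 4.38%) and FABP4 lower (background 5.85%). The groups did not overlap for 4 of 16 (background 26.2%), the less bright LPL and the dim PNPLA2 probe set higher (background 13.2%) and FABP4 and LEP lower (background 13%). For any dose against untreated 0 passed (background 0%) and FABP4 had an unadjusted p under 0.05 (background 4.83%, and 2.41% for lower), at -0.41 ± 0.15 (limma adjusted p = 0.956), and 0 were free of overlap (background 2.75%). The largest member changes were 0.72, 0.47, 0.81 and 0.51 in the 4 comparisons as ordered here.

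Several members differed widely between animals of a group. With each gene read on its brightest probe set, untreated replicate 2 was the highest of the 8 animals for 7 of 10 members, ADIPOQ, LEP, FABP4, PNPLA2, SCD, FASN and CIDEA, while it was the highest for 9.77% of all 6765 genes with a symbol. The other 7 animals shared the remaining 3 genes: CFD was highest in low-dose replicate 2, LPL in low-dose replicate 3 and LIPE in high-dose replicate 1. This pattern was picked after the values were seen and is given as a description.

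In that animal SCD stood 0.97 and CIDEA 0.82 above the next animal, ADIPOQ was above background there alone, whereas LEP and PNPLA2 led by 0.05 and 0.03. The mean centred level of the 10 genes was 0.56 in untreated replicate 2 and between -0.25 and 0.17 in the other 7. Its level of the 5 further fat cell markers was 0.02, of fatty acid synthesis genes 0.42 (-0.25 to 0.16 in the others), of macrophage genes 0.38 (-0.55 to 0.52) and of heart muscle genes -0.10 (-0.09 to 0.08). The part of these in the members' values was not tested.

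**Figure D4:**
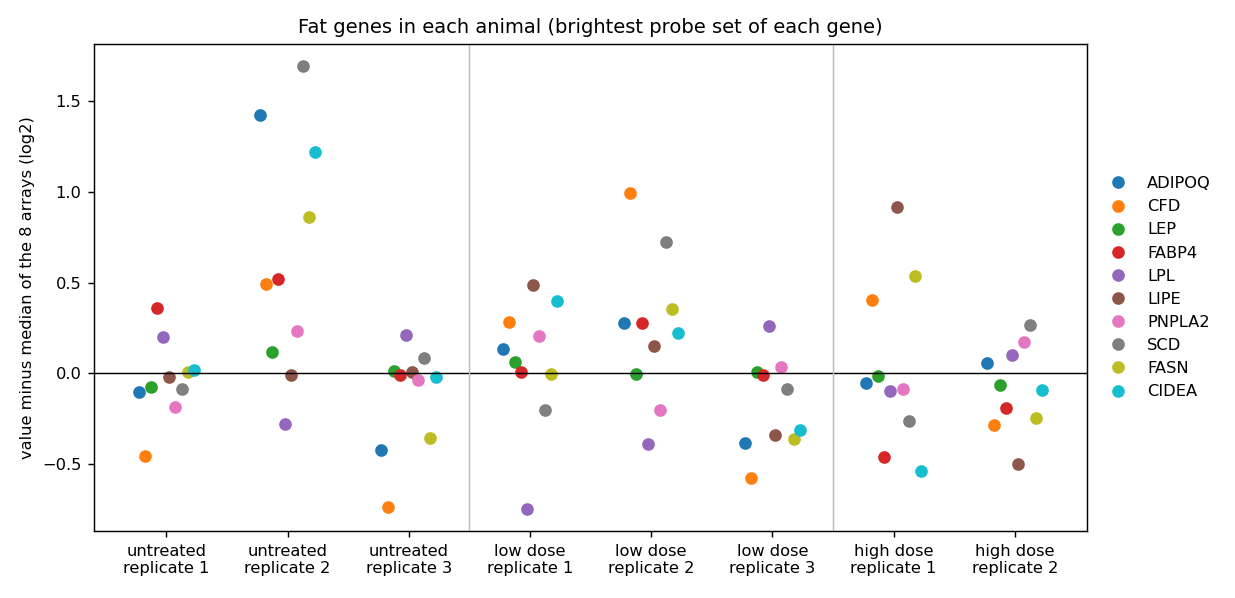
Value of the brightest probe set of each fat gene minus its median over the 8 arrays (log2, vertical axis) in each animal (horizontal axis); each colour is 1 gene. SCD, ADIPOQ, CIDEA and FASN are highest in untreated replicate 2, while LIPE parts the 2 high-dose animals at 6.55 and 5.13.

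Leaving that animal out turned several signs. Without it, low dose against untreated gave 0.15 for SCD (in place of -0.42), 0.10 for CIDEA (-0.30) and 0.17 for FASN (-0.18), and 0 of the 16 probe sets passed in any comparison. High dose against untreated gave 0.65 for CFD in place of 0.29 and 0.32 for FASN in place of -0.03. FABP4 was lower at the high dose in that fit too, at -0.50.

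Across the 8 animals, 9 correlations with ADIPOQ were computed on the brightest probe sets. None passed by Pearson's r in an exact permutation test after Benjamini-Hochberg adjustment. SCD had r = 0.887 (permutation p = 0.0188, adjusted 0.0565) and rho = 0.452 (permutation p = 0.267, adjusted 0.401), and r was 0.581 without the 2 animals farthest from the ADIPOQ median, untreated replicates 2 and 3. CIDEA had r = 0.875 (permutation p = 0.0163, adjusted 0.0565) and FASN r = 0.818 (permutation p = 0.00796, adjusted 0.0565), with 0.655 and 0.512 without those animals, and rho = 0.667 and 0.714 (permutation p = 0.0831 and 0.0576, adjusted 0.187 and 0.173). These relations rest on 1 or 2 animals.

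CFD and LPL had the highest and the lowest rank correlation with ADIPOQ. CFD had rho = 0.905 (permutation p = 0.00456, adjusted 0.0411) and r = 0.62 (permutation p = 0.0752, adjusted 0.158), and r = 0.802 without the 2 farthest animals. LPL had rho = -0.857 (permutation p = 0.0107, adjusted 0.0482) and r = -0.498 (permutation p = 0.198, adjusted 0.254), and r = -0.741 without those animals. Without the 2 farthest animals the adjusted permutation p of r was 0.388 for both. For deviations from the group means, permuted within groups over 72 orderings, the adjusted permutation p was 0.125 for CFD and 0.175 for LPL. Since 7 of 8 ADIPOQ values lie below the lower quartile of their arrays, these ranks are given as a description and support no relation.

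Among the 6059 probe sets with another single symbol and a mean above the array median, those most like ADIPOQ over the 8 arrays were CH25H (r = 0.942), SLC25A33 (0.925), CCDC51 (0.925), PIGA (0.909) and CRISPLD2 (0.904). Each was highest in untreated replicate 2, the only animal with ADIPOQ above background, which largely follows from how they were picked. CH25H, which hydroxylates cholesterol, measured 7.90 there and 6.68 to 7.16 in the other 7. These are measures of likeness only.

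Around the members, further genes of fat metabolism were examined in lists, with each gene read on its brightest probe set. None passed in any comparison (limma), so the values below are differences that did not pass. Among 7 lipid droplet and lipase partner genes, 5 were higher at the high dose than in untreated animals. Their median was 0.25, against 0.02 over all 6765 genes. Over all genes 3640 were higher in that comparison, and 4.61% were higher with an unadjusted p under 0.05. ABHD5, the protein that activates PNPLA2, measured 8.72 and 8.94 in high-dose animals, against 7.51, 8.42 and 7.47 in untreated ones, a difference of 1.03 (limma adjusted p = 0.526), and was the 1 gene of the list with an unadjusted p under 0.05. The monoglyceride lipase MGLL was at -0.08 and FITM1 at 0.32.

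Among 10 further fatty acid synthesis genes, 6 were higher and 4 lower at the high dose, with a median of 0.09. The elongase ELOVL6 measured 5.16 and 4.97 in high-dose animals, against 5.77, 6.70 and 5.90 in untreated ones, a difference of -1.06 (limma adjusted p = 0.553). SCD5, a second desaturase, measured 5.16 and 5.19 in high-dose animals, against 6.49, 6.82 and 5.49 in untreated ones (-1.09, limma adjusted p = 0.517), and differed by -0.80 at the low dose (limma adjusted p = 0.998). The carboxylase ACACA, which makes malonyl-CoA, was at 0.41 at the high dose on a dim probe set.

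Triglyceride synthesis genes had a median of 0.06 over 12 genes at the high dose, with 0 at an unadjusted p under 0.05. The acyltransferase DGAT2, which forms triglyceride, was at 0.53 (limma adjusted p = 0.718). The phosphatase LPIN1 was 0.72 lower at the high than at the low dose on the brightest probe set (limma adjusted p = 0.369), the 1 gene of this list under 0.05 before adjustment in that comparison, where 5.79% of all genes were lower and 5.41% higher at that p.

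Lipoprotein lipase partners and fatty acid uptake genes had 10 of 14 higher at the high dose than in untreated animals, against 3640 of all 6765 genes. Their median was 0.17, and 2 were higher with a limma unadjusted p under 0.05, ACSL3 and FABP3, against 4.61% of all genes. FABP3, the fatty acid binding protein of heart muscle, measured 13.91 and 13.83 in high-dose animals, against 13.49, 13.64 and 13.36 in untreated ones, a difference of 0.37 (limma adjusted p = 0.526). It thus lay on the other side of 0 from FABP4, at -0.61. The acyl-CoA synthetases ACSL1 and ACSL3, which activate fatty acids, were at 0.36 and 0.46 (limma adjusted p = 0.626 and 0.526). Against the low dose they were higher by 0.60 and 0.67 (limma adjusted p = 0.289 and 0.266). In that comparison the less bright LPL probe set was at 0.81 and the brighter one at 0.29.

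Receptors for the adipokines did not pass either. For high dose against untreated, the adiponectin receptor ADIPOR1 was at 0.22 (limma adjusted p = 0.757). The leptin receptor LEPR, close to background, was at 0.33 and its overlapping transcript LEPROT at -0.33. Of the 15 genes of this list 9 were higher, against 3640 of all 6765, with a median of 0.08. With a limma unadjusted p under 0.05, LEPR and RBP4 were higher and LEPROT lower. Over all genes 4.61% were higher and 4.95% lower at that p. Among 12 transcription factors of fat cell formation and lipid use, 9 were higher, with a median of 0.12. PPARG, the master regulator of fat cells, measured 3.38 and 3.92 in high-dose animals, against 4.10, 4.13 and 3.75 in untreated ones (-0.34, limma adjusted p = 0.713), at or near background. KLF15 was at -1.11 (limma adjusted p = 0.50). The coactivator PPARGC1A was at 1.08 (limma adjusted p = 0.333) and KLF4 at 1.52 (limma adjusted p = 0.384). KLF4 also differed between animals of a group. It measured 9.02, 9.84 and 8.94 in untreated animals, 10.10, 8.92 and 9.96 at the low dose and 11.02 and 10.54 at the high dose.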

How the data were processed

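Biotin-labelled targets were made from Trizol-extracted total RNA, per the labels' protocols. The authors deposited log2 expression values, made with RMA and Partek 6.6 per the submitters' processing notes (other settings: not given in the sources used here). This method equalises the distributions of the arrays, so a change shared by most genes is removed.

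Of 24123 probe sets, 124 controls were left out, among them 2 for leptin. A model with a mean per group was fitted to all 8 arrays with limma 3.58.1 (R 4.3.3; 5 residual and 3.5 prior degrees of freedom), with Benjamini-Hochberg adjustment over 23999 probe sets and a threshold of 0.05. Gene symbols came from the platform annotation: 10069 tested probe sets carried 1, 198 several and 13732 none. Lists used the brightest probe set of a gene. Genes to name were all members, the 5 probe sets most like ADIPOQ and, from each list, genes among the 3 with the smallest p in any comparison; not all of these are given. INSIG1 and the set of genes in the closing observations were chosen after their values were seen. List levels are means of gene-centred values.

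The members and lists were chosen with earlier results of these data known. Groups follow the treatment labels, 1 animal an array, so p-values measure the spread between animals. The number of arrays limits the precision. The fitting and correlation code was tested on simulated data. Alternatives were an intensity trend or robust prior in limma, leaving out dim probe sets, other centring or scaling, array weights, fits of only the groups compared, each array left out, and a covariate for, or omission of, untreated replicate 2 and low-dose replicate 1, whose tag numbers are consecutive. Untreated replicates 1 and 3 and both high-dose animals are further consecutive pairs, each within 1 group. The labels do not say whether such animals share a litter or batch. No genome and no sequence was used.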

Additional observations from a re-analysis of the deposited data

How the results depend on the processing

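In each of the 17 alternatives 0 member probe sets passed in any of the 4 comparisons. Of 1064 member differences under the alternatives, 1055 moved by less than 1 SD of the replicates, 9 moved further (LIPE, the dimmest FASN probe set and SCD, with 1 or 2 animals left out) and 111 had another sign, none of them FABP4. Over all probe sets, high dose against untreated passed 0, but 4 with an intensity trend, 7 with a robust prior, 3 with median centring, 9 with renewed quantile normalization, 13 with array weights, 2 with only the compared arrays, 70 with the tag number covariate, 55 without those 2 animals and 0 to 19 leaving out 1 array each (19 without untreated replicate 2). Low dose and any dose against untreated passed 0, and 1 each without the 2 tagged animals. High against low dose passed 6, but 1 without dim probe sets, 10 with array weights, 0 with only the compared arrays, 25 with the covariate, 12 without those animals and 0 to 7 leaving out 1 array each (0 without untreated replicates 1 or 3, low-dose replicates 2 or 3 or high-dose replicate 1, 1 without high-dose replicate 2). Leaving out a high-dose animal leaves 1, which is assumed to vary like the other groups. The cause of these shifts was not tested. No paired analysis was possible because each animal had 1 treatment and 1 array. The replicate numbers used here pair no animals between groups.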

Other observations

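The droplet coat protein PLIN2 differed widely between animals of a group. It measured 6.65, 10.82 and 6.72 in untreated animals, 9.99, 6.48 and 9.11 at the low dose and 10.11 and 9.74 at the high dose. Untreated replicates 1 and 3 and low-dose replicate 2 thus lay between 6.48 and 6.72, and the other 5 animals between 9.11 and 10.82. The difference of high dose from untreated was 1.86 (limma adjusted p = 0.789).

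The same 3 animals were lowest for ABHD5, at 7.51, 7.47 and 7.13, where the others lay between 8.13 and 8.94, and for the transcription factor KLF4, at 9.02, 8.94 and 8.92, where the others lay between 9.84 and 11.02. INSIG1, which holds back sterol and fatty acid synthesis, measured 7.71, 7.51 and 7.83 in these 3, 7.91 in high-dose replicate 2 and 9.19 to 10.38 in the other 4. ANGPTL4, the inhibitor of lipoprotein lipase, was 6.85, 7.20 and 7.22 in the 3 and 7.52 to 9.87 in the others. SCD, FASN and CIDEA did not divide the animals in this way. These genes were chosen after their values were seen, and no test was made between animals set apart by them.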
